A study of Mus musculus with 8 samples.

Results

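The genes described here encode the proteins of the heart muscle sarcomere and Z-disc. They are the members of a list that were found as the gene name of at least 1 probe in the scanner files, which held for all 35. The list holds 9 thick filament genes, 9 thin filament genes, 3 titin and M-band genes, 9 Z-disc genes and 5 stress-responsive genes of the same structures. They were measured by 54 of the 55681 probes on the array and are 35 of its 35019 gene names. The list was not chosen by a threshold on measured values. The question was which heart muscle transcripts stayed above background in cells grown out of atrial explants, in 4 groups of 2 arrays each. The passage-8 cells were derivatives of c-kit+/CD45+ cells at passage 8. The CD45-negative cells were primary c-kit+/CD45- sorted cells from explants digested strongly, with trypsin at 0.25% and collagenase D at 0.1%. The CD45-positive cells were primary c-kit+/CD45+ sorted cells from explants digested weakly, with trypsin at 0.05% and collagenase D at 0.1%. The fourth group was the left ventricular wall of 12 week old mice. All mice were C57BL/6, and the explants were left atrial appendages of animals 8 to 12 weeks old. No atrial tissue was among the arrays, so each comparison of cells with heart muscle here sets atrial-derived cells against ventricle. Sort gate and digestion strength changed together between the CD45-negative and CD45-positive cells and cannot be told apart. RNA came from a column kit in the cells and from Tri-reagent in the tissue, so extraction and group cannot be told apart in the comparisons with ventricle. Nothing in the labels ties the replicates to separate cultures or animals. The p-values below therefore measure the spread between these samples alone, and that spread may be technical.

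The sarcomere is the contractile unit of striated muscle. Myosin of the thick filament pulls on actin of the thin filament, troponin and tropomyosin on the thin filament make this pull depend on calcium, titin spans from the Z-disc to the M-band, and the Z-disc anchors the thin filaments of neighbouring sarcomeres. Several Z-disc and thin filament proteins, among them some tropomyosins, filamins and nexilin, also work in the actin stress fibres of cells that have no sarcomeres, and many sarcomere genes have close relatives that serve the cytoskeleton of other cells.

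Levels are given as the log2 of the processed spot signal minus the 75th percentile of that array, so a level of 0 is a signal equal to that percentile. The scanner software called 51.5% to 69.9% of the spots of an array well above background, 0 spots were saturated, and the second passage-8 array had the highest share. The lowest signal that still passed that call lay between -5.86 and -4.53 across the 8 arrays and differed between groups. It was -5.86 and -5.55 in passage-8 cells and -4.71 and -4.53 in CD45-negative cells. In CD45-positive cells it was -5.82 and -4.94, and in ventricle -5.11 and -4.81. The sort gate was visible in the gene for CD45 itself, Ptprc, whose levels were -5.57 and -5.18 in passage-8 cells, -5.52 and -3.34 in CD45-negative cells, 2.04 and 1.93 in CD45-positive cells, against -2.33 and -2.89 in ventricle. The second ventricle array stood apart from the first in genes of the atrium, Myl4 and Myl7 among them, and 7 of the 35 members differed by more than 1 log2 unit between the ventricle arrays. Among members above background on both arrays of the group, the same count was 1 of 21 in passage-8 cells, 2 of 15 in CD45-negative cells and 0 of 19 in CD45-positive cells. The second CD45-negative array carried Actc1 and Tmod1 signal that the first lacked. Calls that were lost without 1 of these arrays are given with and without it. Differences that passed only when 1 of them was left out are given for some members and not for all.

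Well above background on both arrays were 21 of the 35 genes in passage-8 cells, 15 in CD45-negative cells, 19 in CD45-positive cells and 35 in ventricle. On 1 of 2 arrays there were a further 4, 5 and 1 genes in the 3 cell groups, in that order. The lowest passing signal was highest on the CD45-negative arrays, so the groups were not counted at an equal limit. The part of this in these counts and in those by role below was not tested. Of the 21709 genes above background on both ventricle arrays, 93.0% were so in passage-8 cells, 84.9% in CD45-negative cells and 91.3% in CD45-positive cells. The corresponding shares of the sarcomere and Z-disc genes were 60.0%, 42.9% and 54.3%. Fewer cells that carry a transcript and less of it per cell cannot be told apart in bulk RNA, here and in every comparison that follows.

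The 15 genes above background on all 6 cell arrays were Myh7, Myl3, Myl4, Acta1, Tnnt2, Tnni3, Tnnc1, Tpm1, Tpm2, Ldb3, Flnc, Nexn, Ankrd1, Cryab and Fhl2. The 8 genes above background on no cell array were Myl7, Lmod2, Ttn, Myoz2, Myot, Nebl, Csrp3 and Xirp1. Ttn and Nebl each had 1 other probe that passed on a single passage-8 array. The other 12 genes passed on some cell arrays and not on others. Several of the genes that passed did so close to the limit of detection. When a level at least 2 log2 units over the dimmest passing signal was required, a setting chosen after seeing the data, 14 genes remained in passage-8 cells, 11 in CD45-negative cells, 14 in CD45-positive cells and 35 in ventricle. The 11 genes that met it in all 3 cell groups were Myl4, Acta1, Tnnt2, Tpm1, Tpm2, Ldb3, Flnc, Nexn, Ankrd1, Cryab and Fhl2. By role, 6 of 9 thin filament genes were above background on both arrays in passage-8 cells, 6 of 9 in CD45-negative cells and 7 of 9 in CD45-positive cells. Of the thick filament genes 6, 3 and 6 of 9 passed in those groups, of the Z-disc genes 4, 3 and 3 of 9, and of the stress-responsive genes 3 of 5 in each. Of titin and the M-band genes, 2 of 3 passed in passage-8 cells and 0 of 3 in either primary group.

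**Figure D1:**
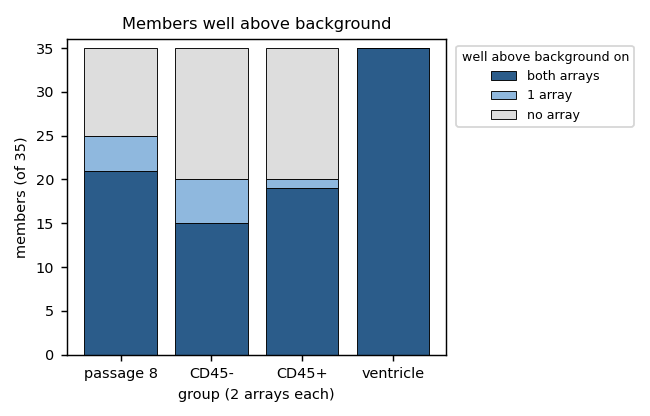
Number of the 35 sarcomere and Z-disc genes (bar height) well above background on both arrays, on 1 array or on no array of each group. Passage-8 cells had 21 on both arrays, CD45-negative cells 15, CD45-positive cells 19 and ventricle 35.

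Differences were tested with limma over all genes, with passing defined as a Benjamini-Hochberg adjusted p below 0.05 and a difference of at least 1 log2 unit. Compared with ventricle, 31 of 35 genes were lower and 2 higher in passage-8 cells, where 18.9% of all genes tested were lower and 20.3% higher. In CD45-negative cells 31 were lower and 2 higher, against backgrounds of 19.2% and 20.3%. In CD45-positive cells 32 were lower and 2 higher, against 19.8% and 18.3%. The median difference from ventricle over the 35 genes was -9.95 log2 units in passage-8 cells, -9.89 in CD45-negative cells and -10.15 in CD45-positive cells, while the medians of all genes tested were 0.05, 0.06 and -0.02. With undetected genes set at their bounds these medians were -9.30, -9.58 and -9.36. The 3 comparisons share the 2 ventricle arrays. An exact permutation test of 2 arrays against 2 cannot give a p below 0.333, so the calls rest on limma's spread pooled over genes and groups. Standard errors (SE) given below are those of limma.

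**Figure D2:**
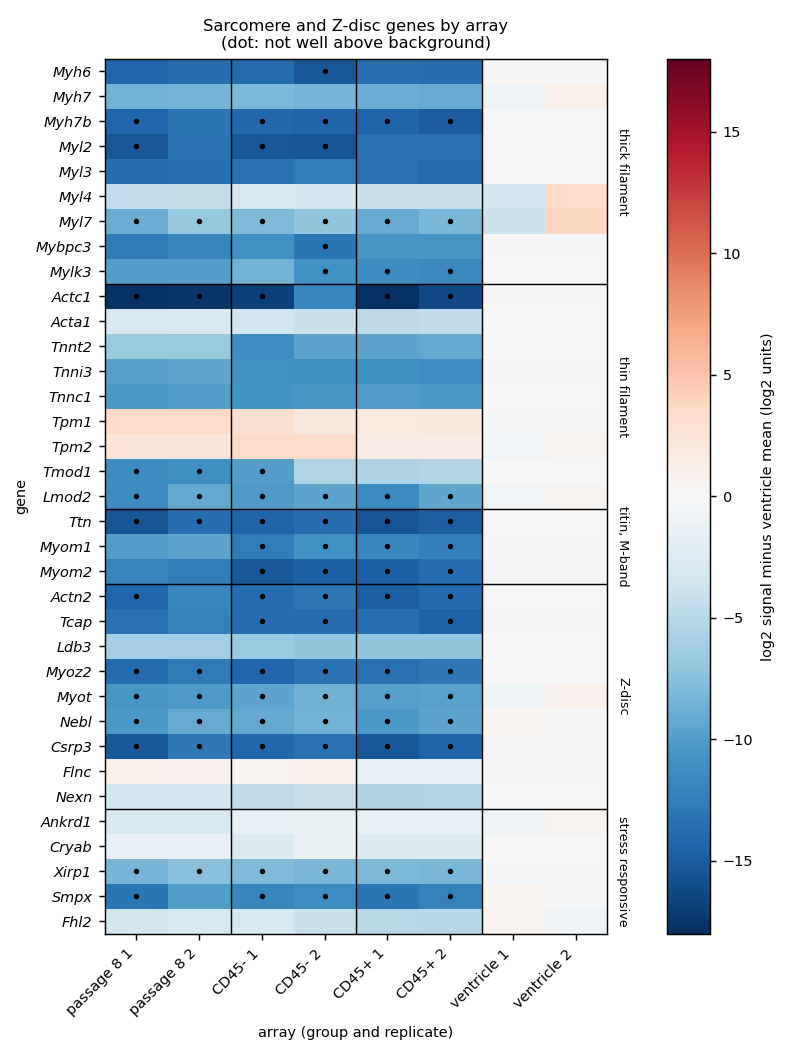
Heat map of the 35 genes (rows, by role) on the 8 arrays (columns), as log2 level minus the ventricle mean of the gene. A dot marks a spot not well above background. Most rows are far below ventricle on all 6 cell arrays, and Tpm1 and Tpm2 lie above it.

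Where a probe was not well above background on either array of a group, its level there is only an upper limit. The fold is then given as at least the mean of the brighter group over, per array of the dimmer group, the higher of that array's lowest passing signal and the probe's own. An adjusted p printed beside such a bound belongs to the difference fitted to the measured levels. That difference is at least as large as the bound, and the bound itself was not tested. Such bounds were given for 10 genes in passage-8 cells, from at least 126-fold lower than ventricle for Myl7 to at least 52849-fold for Actc1. For 15 genes in CD45-negative cells they ran from at least 61.8-fold for Myl7 to at least 16660-fold for Myl2. In CD45-positive cells 15 genes had bounds, from at least 105-fold for Myl7 to at least 42142-fold for Actc1.

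Among the thick filament genes, the myosin heavy chains carried almost none of their ventricular level into the cells. Myh6, the heavy chain that dominates in adult mouse heart, had levels of -4.78 and -4.11 in passage-8 cells, -4.27 and -5.73 in CD45-negative cells, -4.03 and -4.15 in CD45-positive cells, against 9.72 and 9.38 in ventricle. The second CD45-negative array was not above background, and no cell array overlapped with ventricle. The differences from ventricle were -13.99, -14.55 and -13.64 log2 units in the 3 cell groups (SE 0.52 each), and in CD45-negative cells -15.28 without replicate 1 and -13.82 without replicate 2. A dimmer Myh6 probe was above background on the second passage-8 array alone among the cells, at -4.54, against 5.64 and 4.61 in ventricle. Myh7, the slow heavy chain that prevails before birth, measured -3.75 and -3.60 in passage-8 cells, -3.26 and -3.53 in CD45-negative cells, -4.16 and -4.24 in CD45-positive cells, against 3.87 and 5.75 in ventricle. It passed the detection call on every cell array, yet lay 359-fold below ventricle in passage-8 cells, 295-fold in CD45-negative cells and 517-fold in CD45-positive cells. These folds moved with the ventricle arrays, the differences being -9.42, -9.14 and -9.95 log2 units without ventricle replicate 1 and -7.55, -7.27 and -8.08 without ventricle replicate 2, and the calls held. For Myh7b, a slow-type heavy chain gene, only the second of the passage-8 arrays, at -4.70, was above background among the cells, against 8.23 and 8.49 in ventricle.

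The ventricular light chains were also far below ventricle in all cells. Myl2, the ventricular regulatory light chain, was at -6.04 and -3.92 in passage-8 cells, -6.04 and -6.20 in CD45-negative cells, -4.04 and -4.04 in CD45-positive cells, against 9.40 and 9.41 in ventricle. It was above background on the second passage-8 array and on both CD45-positive arrays. A dimmer Myl2 probe was above background on no cell array, and was at 2.77 and 1.32 in ventricle. Myl3, the ventricular essential light chain, passed on all cell arrays, with -3.63 and -3.52 in passage-8 cells, -3.31 and -2.54 in CD45-negative cells, -3.33 and -3.70 in CD45-positive cells, against 10.21 and 9.99 in ventricle. Its differences from ventricle were -13.67, -13.03 and -13.61 log2 units in that order (SE 0.32).

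Myl4, the atrial essential light chain, was above background on all 8 arrays, and its comparison with ventricle turned on 1 array. It measured -0.13 and -0.08 in passage-8 cells, 1.27 and 0.80 in CD45-negative cells, 0.19 and 0.20 in CD45-positive cells, against 0.72 and 7.76 in ventricle. Both CD45-negative levels were just above that of the first ventricle array, while the second ventricle array was far above every other. The differences from ventricle of -4.35, -3.20 and -4.05 log2 units did not pass, with limma adjusted p of 0.137, 0.250 and 0.164. Without ventricle replicate 1 they were -7.87, -6.72 and -7.57 and passed, with limma adjusted p of 0.00129, 0.00134 and 0.00164. Without ventricle replicate 2 they were -0.82, 0.32 and -0.52 and did not. Myl7, the atrial regulatory light chain, was not above background on any cell array, and its ventricle levels were -2.55 and 5.21. It was at least 126-fold lower in passage-8 cells, at least 61.8-fold in CD45-negative cells and at least 105-fold in CD45-positive cells, with limma adjusted p of 0.0394, 0.0435 and 0.0308. These calls were lost without either array of the cell group compared (limma adjusted p 0.0679 to 0.138) and without some single arrays of the other cell groups (0.0535 to 0.0734), and in CD45-negative cells also without ventricle replicate 2 (-3.71 log2 units, 0.0555). Without that array the differences in passage-8 and CD45-positive cells were -3.99 and -4.70 log2 units, against -7.87 and -8.59 with it, so the bounds above rest on it, and the calls held (limma adjusted p = 0.0460 and 0.0317).

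Mybpc3, cardiac myosin-binding protein C, had -4.16 and -3.30 in passage-8 cells, -2.23 and -4.56 in CD45-negative cells, -1.85 and -1.80 in CD45-positive cells, against 8.89 and 8.34 in ventricle. The CD45-positive arrays were the highest of the 6 cell arrays, the second CD45-negative array was not above background, and all were far below ventricle. Its difference between passage-8 and CD45-positive cells, -1.91 log2 units (SE 0.77), did not pass, with a limma adjusted p of 0.121. Without either CD45-negative array, which lowers the pooled spread, it passed with a limma adjusted p of 0.0190. Mylk3, the cardiac myosin light chain kinase, was at -5.25 and -5.20 in passage-8 cells, -3.84 and -6.21 in CD45-negative cells, -6.60 and -6.88 in CD45-positive cells, against 4.73 and 4.71 in ventricle. By this probe, its brightest, it was above background on both passage-8 arrays and on the first CD45-negative array. Its dimmer probes were above background on no cell array and on both ventricle arrays.

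Of the thin filament genes, the sarcomeric actins parted in their detection. Their probe sequences are printed because Acta1 was detected on every cell array and Actc1 on 1 of 6. The Acta1 probe, in full, reads actin coding sequence, which is closely alike among muscle actins. It lies at chr8:126416197-126416256 and the first 30 bases of the Actc1 probe come from a site at chr2:113873064-113873123, both on the minus strand of mouse build mm9. Whether the Acta1 probe also binds other actin transcripts was not tested.
Acta1: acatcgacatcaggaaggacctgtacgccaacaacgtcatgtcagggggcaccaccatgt
Actc1: ctctcatcagtcattgtacagtttgtttac

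Acta1, skeletal alpha-actin, was at 2.75 and 2.81 in passage-8 cells, 2.07 and 1.64 in CD45-negative cells, 0.96 and 1.16 in CD45-positive cells, against 5.73 and 5.69 in ventricle. The 4 groups did not overlap, and the order from low to high was CD45-positive, CD45-negative, passage-8 and ventricle. Acta1 was lower than in ventricle by 7.61-fold in passage-8 cells, 14.4-fold in CD45-negative cells and 25.0-fold in CD45-positive cells, with limma adjusted p of 0.000413, 0.000207 and 0.000145. Actc1, cardiac alpha-actin, measured -7.84 and -7.49 in passage-8 cells, -6.81 and -1.71 in CD45-negative cells, -7.79 and -6.31 in CD45-positive cells, against 10.22 and 9.75 in ventricle. Among the cell arrays it was above background only on the second CD45-negative array. It was at least 52849-fold lower in passage-8 cells and at least 42142-fold lower in CD45-positive cells than in ventricle, with limma adjusted p of 0.000567 and 0.000667.

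The 3 troponin genes were above background on every cell array. Tnnt2, cardiac troponin T, and Tnni3, cardiac troponin I, are genes used as markers of heart muscle cells, and their probes are printed because both were higher in passage-8 cells than in either primary group. The Tnnt2 probe spans chr1:137747976-137748288 on the plus strand, a stretch longer than the probe, and the Tnni3 probe lies at chr7:4472043-4472102 on the minus strand, both in mm9.
Tnnt2: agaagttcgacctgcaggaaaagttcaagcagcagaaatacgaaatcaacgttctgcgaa
Tnni3: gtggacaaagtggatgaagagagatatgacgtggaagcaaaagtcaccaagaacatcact

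Tnnt2 had levels of 2.41 and 2.42 in passage-8 cells, -2.08 and -0.43 in CD45-negative cells, -0.36 and -0.09 in CD45-positive cells, against 9.25 and 9.02 in ventricle. Passage-8 cells lay above both primary groups and below ventricle, without overlap, and the first CD45-negative array was the lowest. Relative to ventricle, Tnnt2 was 106-fold lower in passage-8 cells, 1342-fold lower in CD45-negative cells and 658-fold lower in CD45-positive cells. The CD45-negative difference was -9.56 log2 units without CD45-negative replicate 1 and -11.22 without CD45-negative replicate 2. Tnni3 was at -1.42 and -0.96 in passage-8 cells, -2.54 and -2.59 in CD45-negative cells, -2.61 and -2.75 in CD45-positive cells, against 8.59 and 8.24 in ventricle. Passage-8 cells were again the highest of the cells. The differences of Tnni3 from ventricle were -9.60, -10.98 and -11.09 log2 units (SE 0.25). Tnnc1, the calcium-binding troponin C of slow and cardiac muscle, lay between -3.51 and -2.81 on all 6 cell arrays, against 7.34 and 7.10 in ventricle. Passage-8 and CD45-positive cells overlapped, CD45-negative cells were slightly lower, and none of its differences among them passed.

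Tmod1 and Lmod2 encode proteins of the pointed end of the thin filament, where tropomodulin caps and leiomodin allows growth. Tmod1 had -7.77 and -7.43 in passage-8 cells, -6.27 and -1.82 in CD45-negative cells, -1.93 and -1.71 in CD45-positive cells, against 3.68 and 3.51 in ventricle. It was above background on both CD45-positive arrays and on the second CD45-negative array, and on neither passage-8 array. Passage-8 cells had at least 631-fold less Tmod1 signal than ventricle, with a limma adjusted p of 0.00142. CD45-positive cells had 42.7-fold less, with a limma adjusted p of 0.0196. The call in CD45-positive cells was lost without any 1 of the 4 arrays compared, with differences of -5.53 to -5.30 log2 units and limma adjusted p of 0.0839 to 0.0891. Lmod2 was not above background on any cell array and was at 3.04 and 3.91 in ventricle.

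Tpm1 and Tpm2 were the members higher in all 3 cell groups than in ventricle, and Tpm1 depended on the probe. Tropomyosin lies along actin filaments in muscle and other cells, and Tpm1 gives rise to different messages by alternative splicing, among them a 3′ end used in striated muscle and others used in smooth muscle and non-muscle cells. The 6 Tpm1 probes lie on the minus strand of chromosome 9 in mm9 and are numbered here from the 3′ end of the gene inward. The probes 1 and 6, which were higher in the cells, are printed in full. Of probes 2 and 4, which were close to ventricle and far below it, the first 30 bases are shown. Probe 1 is at chr9:66871166-66871225, probe 2 at chr9:66872131-66872190, probe 4 at chr9:66875796-66875855 and probe 6 at chr9:66880274-66880333. Capitals mark the TGA at the end of probe 1.
Tpm1 probe 1: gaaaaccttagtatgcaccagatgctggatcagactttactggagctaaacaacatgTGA
Tpm1 probe 2: gagggctgcctgcctggcccgtgtttccct
Tpm1 probe 4: ccttagggccaggcacagactgctttctat
Tpm1 probe 6: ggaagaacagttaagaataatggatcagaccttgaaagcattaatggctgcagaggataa

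Probe 1, the brightest over all arrays and therefore the one that stands for Tpm1 among the counts, was at 4.87 and 4.79 in passage-8 cells, 4.08 and 3.25 in CD45-negative cells, 3.15 and 3.25 in CD45-positive cells, against 1.02 and 1.43 in ventricle. All 6 cell arrays were above both ventricle arrays, and passage-8 cells were the highest. The differences from ventricle were 3.60, 2.44 and 1.98 log2 units (SE 0.33), with limma adjusted p of 0.000615, 0.00223 and 0.00510. Probe 4 went the other way, with 1.90 and 1.84 in passage-8 cells, 0.65 and 1.50 in CD45-negative cells, 0.13 and 0.05 in CD45-positive cells, against 9.86 and 9.76 in ventricle. All cell arrays were far below ventricle, and passage-8 cells were again the highest of the cells. Probe 4 was 245-fold lower in passage-8 cells, 425-fold lower in CD45-negative cells and 841-fold lower in CD45-positive cells, with limma adjusted p over all probes of 1.0e-04, 8.25e-05 and 7.86e-05.

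The remaining Tpm1 probes fell on either side. Probe 3 shares 46 bases and 3 transcripts with probe 4 and is not a separate measurement, and its differences from ventricle were -7.57, -8.37 and -9.43 log2 units. Probe 6 measured 1.37 and 1.24 in passage-8 cells, -0.69 and -0.08 in CD45-negative cells, -0.63 and -0.71 in CD45-positive cells, against -1.87 and -2.45 in ventricle, and was higher in the cells by 3.47, 1.78 and 1.49 log2 units. Probe 2, at 1.17 to 1.73 on all 8 arrays, did not pass against ventricle in any group, with differences of 0.43, 0.43 and 0.26. Probe 5, at -1.08 and -0.97 in passage-8 cells, -1.57 and -1.33 in CD45-negative cells, -3.43 and -3.07 in CD45-positive cells, against -0.35 and -0.95 in ventricle, passed in CD45-positive cells alone, at -2.60 log2 units. By the RefSeq accessions, probe 1 is found in 4 transcripts and probe 4 in 3, and they have 0 in common, while probe 6 shares 1 with each. When the 6 probes were averaged, Tpm1 was lower in all 3 cell groups than in ventricle, by -1.40, -2.21 and -3.0 log2 units, with limma adjusted p of 0.00445, 0.000876 and 0.000355. A direction for Tpm1 as a gene is therefore not given by these arrays.

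**Figure D3:**
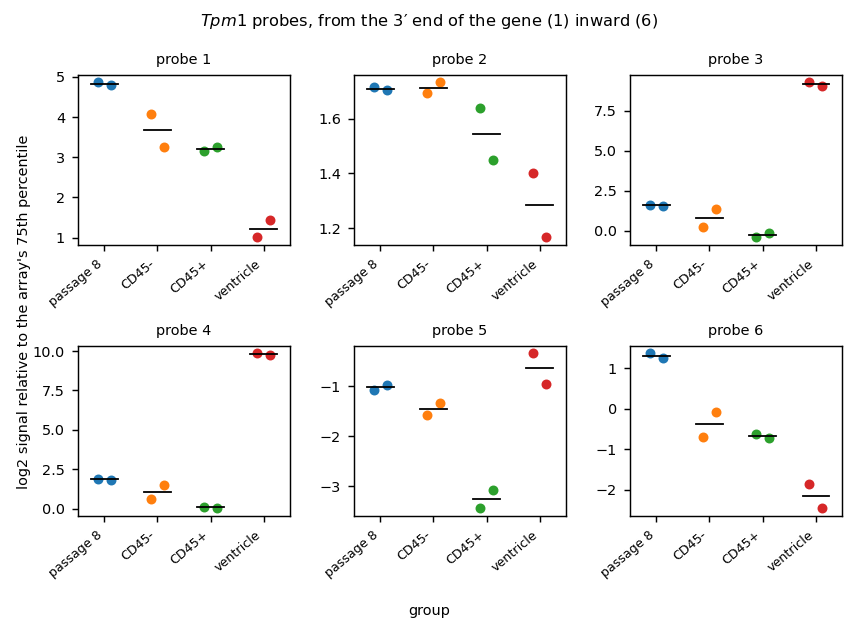
Log2 level of the 6 Tpm1 probes, with 1 panel per probe, from probe 1 at the 3′ end of the gene to probe 6 inward. The x axis gives the group, with 1 point per array. Ventricle lies above 9 and far over the cells at probes 3 and 4, and below all cell arrays at probes 1 and 6.

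Tpm2, beta-tropomyosin, present in skeletal and smooth muscle and fibroblasts, did not depend on the probe. Its brighter probe was at 3.60 and 3.52 in passage-8 cells, 4.73 and 4.63 in CD45-negative cells, 2.68 and 2.78 in CD45-positive cells, against 0.67 and 1.79 in ventricle. All cell groups were above ventricle and apart from each other, CD45-negative cells being the highest. The differences from ventricle were 2.33, 3.45 and 1.50 log2 units (SE 0.38), with limma adjusted p of 0.00434, 0.00108 and 0.0219. The call in CD45-positive cells was lost without ventricle replicate 1 (0.94 log2 units) and without either CD45-positive array (limma adjusted p = 0.0895 and 0.110). A second probe differed by 2.15, 2.85 and 1.21 log2 units. The summed signal of 11 smooth muscle marker genes was 194 to 196 in passage-8 cells, 222 to 242 in CD45-negative cells, 72.7 to 74.6 in CD45-positive cells and 93.0 to 137 in ventricle, in units of each array's 75th percentile. The summed signal of 10 fibroblast marker genes was 1058 to 1065, 1480 to 1568, 614 to 642 and 283 to 432 in the same order. The part of either cell type in the Tpm2 result was not tested.

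Titin spans the sarcomere from the Z-disc, and the myomesins join myosin filaments at the M-band. Ttn was not above background on any cell array by its brightest probe, at -7.97 and -6.18 in passage-8 cells, -6.89 and -6.18 in CD45-negative cells, and -8.02 and -7.21 in CD45-positive cells, against 7.60 and 7.53 in ventricle. It was at least 9895-fold lower in passage-8 cells, at least 4652-fold lower in CD45-negative cells and at least 7891-fold lower in CD45-positive cells. Myom1, myomesin 1, was at -4.04 and -3.60 in passage-8 cells, -6.79 and -5.08 in CD45-negative cells, -5.93 and -6.57 in CD45-positive cells, against 6.03 and 5.65 in ventricle. Myom2, the myomesin of fast fibres and heart, was at -3.41 and -3.85 in passage-8 cells, -6.91 and -6.16 in CD45-negative cells, -6.20 and -5.20 in CD45-positive cells, against 8.36 and 8.74 in ventricle. Both genes were above background on both passage-8 arrays and on no primary cell array, at levels 811-fold and 4646-fold below ventricle.

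The Z-disc genes ranged from members never detected in the cells to Flnc, which was close to its ventricular level. Actn2, sarcomeric alpha-actinin, the main cross-linker of the Z-disc, was above background on the second passage-8 array alone, at -4.95, among the cells, against 6.66 and 6.89 in ventricle. A second Actn2 probe passed on both passage-8 arrays, at -5.42 and -4.49, against -1.36 and -1.76 in ventricle. It did not pass on the CD45-negative arrays, at -4.64 and -4.41, although its mean there was higher, -4.52 against -4.96. The detection call of this probe therefore does not separate these groups by level. Tcap, telethonin, which binds titin at the Z-disc, was at -4.58 and -3.35 in passage-8 cells, -4.85 and -4.83 in CD45-negative cells, -4.73 and -5.70 in CD45-positive cells, against 9.0 and 8.70 in ventricle. It was above background on neither CD45-negative array. Myoz2, Myot, Nebl and Csrp3, which bind alpha-actinin, filamin, actin or one another at the Z-disc, were not above background on any cell array by their brightest probes. The bounds of these 4 genes by those probes ran from at least 132-fold for Nebl in CD45-negative cells to at least 8666-fold for Myoz2 in passage-8 cells. A dimmer Nebl probe was above background on the first passage-8 array. It was at -3.66 and -7.35 in passage-8 cells, against -1.80 and -2.74 in ventricle.

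Ldb3, also called Cypher, a PDZ and LIM protein of the Z-disc, was at -1.02 and -1.22 in passage-8 cells, -1.85 and -2.25 in CD45-negative cells, -2.16 and -2.12 in CD45-positive cells, against 4.93 and 4.84 in ventricle. It was 64.4-fold, 122-fold and 130-fold lower than in ventricle in that order. Flnc, filamin C, the muscle filamin, was the only Z-disc gene near its ventricular level. It measured 5.32 and 5.28 in passage-8 cells, 5.03 and 5.38 in CD45-negative cells, 2.82 and 2.92 in CD45-positive cells, against 4.61 and 4.26 in ventricle. Passage-8 and CD45-negative cells overlapped each other and lay above ventricle, and CD45-positive cells lay below it. The differences from ventricle of 0.86 and 0.77 log2 units in passage-8 and CD45-negative cells had limma adjusted p of 0.0281 and 0.0401 and were under the minimum of 1 log2 unit. Without ventricle replicate 1 the difference in passage-8 cells was 1.04 and passed (limma adjusted p = 0.0376). In CD45-positive cells Flnc was 2.96-fold lower than in ventricle (limma adjusted p = 0.00349). Nexn, nexilin, an actin-binding protein of Z-discs and stress fibres, was at 2.81 and 2.84 in passage-8 cells, 1.76 and 2.26 in CD45-negative cells, 0.81 and 0.91 in CD45-positive cells, against 6.40 and 6.31 in ventricle. The groups did not overlap, and Nexn was lower than in ventricle by 11.5-fold, 20.4-fold and 45.1-fold in passage-8, CD45-negative and CD45-positive cells.

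Of the 5 stress-responsive genes, Ankrd1, Cryab and Fhl2 were well above background on all cell arrays, and Xirp1 and Smpx were not. Ankrd1, the cardiac ankyrin repeat protein of the titin I-band, measured 4.09 and 4.14 in passage-8 cells, 5.35 and 5.64 in CD45-negative cells, 5.32 and 5.32 in CD45-positive cells, against 6.30 and 7.66 in ventricle. The passage-8 arrays were the lowest and the primary groups nearly coincided. Ankrd1 was lower than in ventricle by 7.28-fold in passage-8 cells, 2.80-fold in CD45-negative cells and 3.16-fold in CD45-positive cells, with limma adjusted p of 0.00385, 0.0376 and 0.0277. In passage-8 cells the difference was -3.55 log2 units without ventricle replicate 1 and -2.18 without ventricle replicate 2, and passed in both. Without ventricle replicate 2 neither primary group passed, with a difference of -0.80 log2 units for CD45-negative cells (limma adjusted p = 0.0619) and of -0.98 for CD45-positive cells (limma adjusted p = 0.0397). The call in CD45-negative cells was also lost without any other 1 array except ventricle replicate 1 (limma adjusted p 0.0576 to 0.118), and that in CD45-positive cells without either of its own arrays (0.111 and 0.117).

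Cryab, the small heat shock chaperone alpha-B crystallin, was at 5.78 and 5.80 in passage-8 cells, 4.72 and 5.99 in CD45-negative cells, 4.76 and 4.75 in CD45-positive cells, against 7.46 and 7.18 in ventricle. The cell groups overlapped in part and all lay below ventricle, by 2.88-fold, 3.89-fold and 5.91-fold in that order. The call in passage-8 cells was lost without any 1 array of the passage-8, CD45-positive or ventricle groups, with differences of -1.66 to -1.39 log2 units and limma adjusted p of 0.0580 to 0.122. The call in CD45-negative cells was lost without ventricle replicate 1 (-1.82, limma adjusted p = 0.0640). It held without CD45-negative replicate 1 (-1.33) and without CD45-negative replicate 2 (-2.60). A second, dimmer Cryab probe put passage-8 cells 1.92 log2 units above CD45-negative cells (limma adjusted p over all probes = 0.0204) and 1.34 above CD45-positive cells (0.0384 on the same basis), where the brighter probe gave differences of 0.44 and 1.04 that did not pass. The brighter probe passed against CD45-negative cells without CD45-negative replicate 2 (1.07, limma adjusted p = 0.0280) and against CD45-positive cells without either CD45-negative array (limma adjusted p = 0.0104). Fhl2, a LIM protein that binds titin and also acts as a transcription cofactor in many cells, had 4.43 and 4.60 in passage-8 cells, 4.55 and 3.78 in CD45-negative cells, 2.79 and 2.58 in CD45-positive cells, against 8.36 and 7.18 in ventricle. The passage-8 and CD45-negative arrays overlapped, and both groups lay above CD45-positive cells. Fhl2 was lower than in ventricle by 9.51-fold, 12.1-fold and 33.9-fold. The differences were -2.66, -3.01 and -4.49 log2 units without ventricle replicate 1 and -3.84, -4.19 and -5.67 without ventricle replicate 2, and all passed. Xirp1, which encodes the actin-binding Xin protein, was not above background on any cell array and was at 2.04 and 2.53 in ventricle. Smpx, a small protein of striated muscle, passed only on the second passage-8 array, at -5.08, against 5.31 and 4.63 in ventricle.

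**Figure D4:**
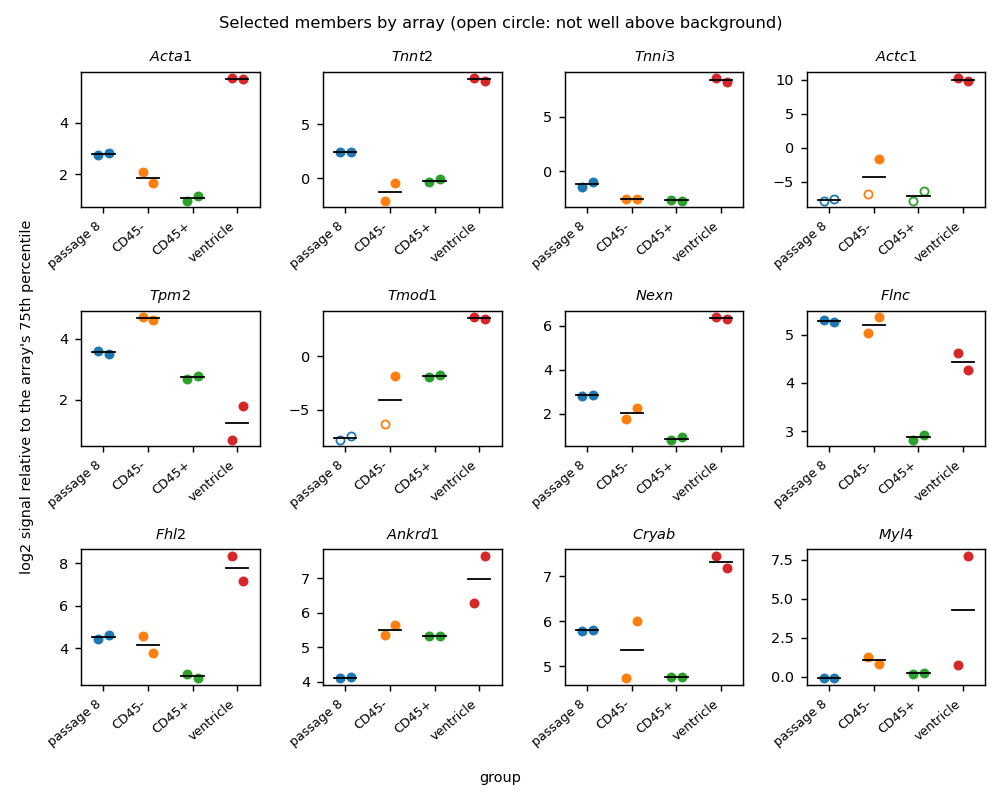
Log2 level of 12 members on the 8 arrays, with 1 panel per gene, 1 point per array and open points where the spot was not well above background. For Tpm2 the cells lie above ventricle, for Flnc they lie on both sides of it, and Actc1 and Tmod1 have 1 CD45-negative array far above the other.

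Among the cell groups, the largest set of differences separated passage-8 cells from the CD45-positive primary cells of the kind they came from. Of the 23 genes tested, 10 were higher and 1 was lower in passage-8 cells, against 12.6% and 10.9% of all genes. The median difference over the 23 genes was 1.04 log2 units, and over all genes tested 0.16. The 23 genes passed the detection filter through at least 1 of these 2 groups and do not stand for all 35. Flnc was higher by 5.38-fold (SE 0.24 log2 units, limma adjusted p = 0.00182), Nexn by 3.91-fold (SE 0.24, limma adjusted p = 0.00342) and Acta1 by 3.29-fold (SE 0.23, limma adjusted p = 0.00478). These 3 calls held with each array left out in turn. The other 8 calls each were lost when at least 1 array was left out, with differences that changed little and a larger adjusted p.

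The higher calls that were lost in this way were the thin filament genes Tnnt2, Tnni3 and Tpm1, the M-band genes Myom1 and Myom2, and Ldb3 and Fhl2. Tnnt2 was 6.22-fold higher (limma adjusted p = 0.0164), and without any 1 of the 4 arrays compared its difference lay between 2.50 and 2.77 log2 units with a limma adjusted p of up to 0.0943. Tnni3 was 2.81-fold higher (limma adjusted p = 0.00956), Tpm1 by probe 1 3.09-fold (limma adjusted p = 0.0172), and Fhl2 3.56-fold (limma adjusted p = 0.0326). The calls of Tpm1 (1.57 to 1.68 log2 units, limma adjusted p up to 0.101) and Fhl2 (1.73 to 1.94, up to 0.162) were likewise lost without any 1 of these 4 arrays, and that of Tnni3 (1.26 to 1.56, up to 0.0793) without passage-8 replicate 2 or either CD45-positive array. Of the 6 Tpm1 probes, 5 were higher in passage-8 cells than in CD45-positive cells, probe 2 being the exception, and of all probes 12.6% were higher. The 6 probes read 1 gene and probes 3 and 4 overlap, so these are not separate calls to weigh against that share. Myom1 was at least 2.95-fold and Myom2 at least 3.37-fold higher in passage-8 cells, where CD45-positive cells were not above background. Their limma adjusted p were 0.0297 and 0.0202. Myom1 was lost without any 1 passage-8, CD45-positive or ventricle array (2.11 to 2.75, limma adjusted p up to 0.162) and Myom2 without either passage-8 array or CD45-positive replicate 1 (1.57 to 2.29, up to 0.103). With normexp background correction neither passed, with differences of 0.66 and 0.69 log2 units. Ldb3 was 2.03-fold higher (limma adjusted p = 0.0231), but its second probe gave -0.24 log2 units (limma adjusted p over all probes = 0.676), and without any 1 of the 4 arrays its difference was 0.92 to 1.12 log2 units and did not pass (limma adjusted p up to 0.132). Scaled on the array median, Tpm1, Ldb3 and Fhl2 did not pass, with limma adjusted p of 0.0940, 0.223 and 0.0679. The 1 gene that was lower was Tmod1, by at least 14.8-fold (limma adjusted p = 0.0247). It was lost without any 1 passage-8, CD45-positive or ventricle array, with differences of -5.95 to -5.61 log2 units and limma adjusted p of up to 0.122.

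**Figure D5:**
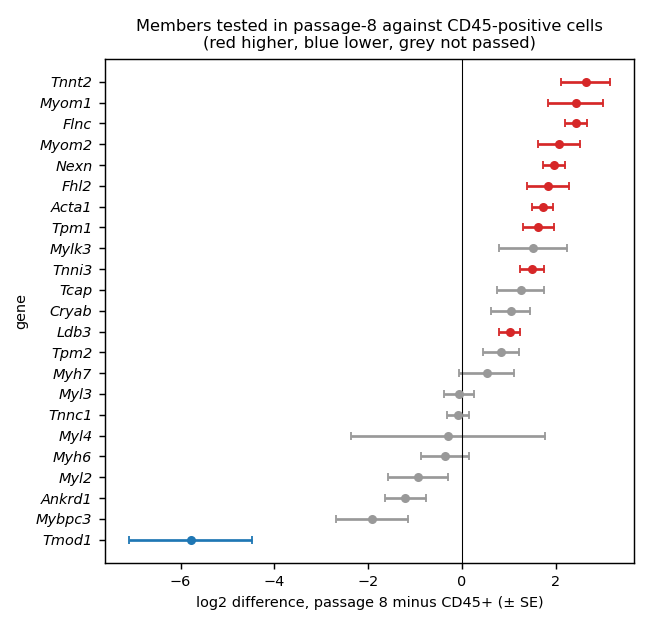
Log2 difference of passage-8 minus CD45-positive cells for the 23 members tested, with bars for the limma standard error. Red marks the 10 members that were higher, blue the 1 that was lower and grey those that did not pass.

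Passage-8 cells against CD45-negative cells gave 3 higher and 0 lower of 21 genes tested, against 6.97% and 6.98% of all genes. These 21 genes passed the detection filter through at least 1 of the groups compared and do not stand for the whole list. Tnnt2 was 12.7-fold higher (limma adjusted p = 0.0106), Tnni3 2.60-fold (limma adjusted p = 0.0210), and Myom2 at least 1.99-fold (limma adjusted p = 0.0123). Myom2 was above background on neither CD45-negative array. Its adjusted p belongs to the fitted difference of 2.90 log2 units. The bound was not tested and lies under the minimum of 1 log2 unit. Without either passage-8 array Tnnt2 (limma adjusted p = 0.0550 and 0.0543) and Myom2 (0.0665 and 0.0501) did not pass, and Tnni3 did not pass without any 1 passage-8 or CD45-positive array (1.15 to 1.60 log2 units, up to 0.148). The Tnnt2 difference was 2.84 log2 units without CD45-negative replicate 1 and 4.49 without CD45-negative replicate 2, and passed in both. With normexp background correction the Tnni3 difference was 0.48 log2 units (limma adjusted p = 0.206) and the Myom2 difference -0.12 (limma adjusted p = 0.829), and with median scaling Tnni3 did not pass (limma adjusted p = 0.0575). Acta1 and Ldb3 had differences of 0.92 and 0.93 log2 units that were under the minimum fold, and without CD45-negative replicate 1 these were 1.14 and 1.13. The second Ldb3 probe went the other way, at -3.11 and -3.24 in passage-8 cells against -2.59 and -1.88 in CD45-negative cells. A direction for Ldb3 in this comparison is therefore not given.

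CD45-negative against CD45-positive cells gave 3 higher and 0 lower of 19 genes, against 11.2% and 10.5% of all genes. Flnc was 5.04-fold higher (limma adjusted p = 0.00333), Tpm2 3.87-fold (limma adjusted p = 0.0166) and Nexn 2.21-fold (limma adjusted p = 0.0207). Of these, Flnc alone held with each array left out. Tpm2 did not pass without either CD45-positive array (limma adjusted p = 0.101 and 0.104). Nexn did not pass without CD45-negative replicate 2 (0.90 log2 units), either CD45-positive array (limma adjusted p = 0.131 and 0.126) or either passage-8 array (0.0516). The difference of Tmod1 here, -2.22 log2 units (SE 1.32), did not pass (limma adjusted p = 0.260). It was -0.00 without CD45-negative replicate 1, and without CD45-negative replicate 2 it was -4.45 and passed (limma adjusted p = 0.00177).

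Marker genes of other cells moved with these comparisons. Of 11 macrophage genes, 11 were lower in passage-8 cells and 11 in CD45-negative cells than in CD45-positive cells, against 10.9% and 10.5% of all genes. Their summed signal was 6.22 to 6.32 in passage-8 cells, 3.93 to 44.7 in CD45-negative cells, 1149 to 1162 in CD45-positive cells and 39.9 to 49.6 in ventricle. The smooth muscle and fibroblast sums given above were higher in passage-8 and CD45-negative cells than in CD45-positive cells, but the single markers were mixed in passage-8 cells. There 2 of 10 fibroblast genes were higher, Col1a2 and Lum, and 3 lower, Thy1, Tcf21 and Postn, and of 8 smooth muscle genes tested Cald1 was higher and Synpo2 lower. CD45-negative against CD45-positive cells had shares of 11.2% higher and 10.5% lower over all genes tested. In CD45-negative cells 7 of 10 fibroblast genes and 3 of 8 smooth muscle genes were higher, and 0 were lower in either list. Their part in the higher levels of Flnc and Nexn in both groups, of Acta1 in passage-8 cells and of Tpm2 in CD45-negative cells was not tested. Heart muscle markers outside the sarcomere, 26 genes, had a summed signal of 9.33 to 9.81 in passage-8 cells, 13.8 to 19.3 in CD45-negative cells, 15.8 to 16.2 in CD45-positive cells and 4261 to 4436 in ventricle. Of these 26, 23 were lower than in ventricle in each cell group, against 18.9% to 19.8% of all genes tested. Among them, the myoglobin gene Mb was at -7.56 and -7.74 in passage-8 cells, -6.50 and -6.26 in CD45-negative cells, and -6.69 and -6.94 in CD45-positive cells, never above background, and at 9.67 and 9.67 in ventricle. Mb does not stand for the list. Above background on both arrays were 13 of the 26 in passage-8 cells, 11 in CD45-negative cells and 12 in CD45-positive cells. Of all genes above background in ventricle, these shares were 93.0%, 84.9% and 91.3%. In CD45-negative cells 1 of the 26 was higher than in ventricle, against 20.3% of all genes tested. Skeletal muscle markers summed to 1.36 to 1.61 in passage-8 cells, 0.637 to 0.929 in CD45-negative cells, 3.51 to 3.56 in CD45-positive cells and 2.10 to 2.27 in ventricle. Most of the sum in CD45-positive cells came from 1 gene, Tnni2, at a mean level of 1.64. In each cell group 7 of these 12 genes were above background on no array.

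A list of 45 other striated muscle sarcomere genes was read beside the members. In passage-8 cells 28 were lower and 2 higher than in ventricle of 40 tested, in CD45-negative cells 30 lower and 0 higher of 39, and in CD45-positive cells 29 lower and 0 higher of 40. Of all genes tested, 18.9% to 19.8% were lower and 18.3% to 20.3% higher. The 2 higher in passage-8 cells were Actn3, fast-fibre alpha-actinin, by 14.8-fold, with 1 of 2 ventricle arrays above background, and Tnnt3, fast troponin T, by 4.76-fold. The largest falls included Trim63, a ubiquitin ligase of the sarcomere, by at least 2531-fold in passage-8 cells, at least 1296-fold in CD45-negative cells and at least 2197-fold in CD45-positive cells. The probe named for Myh8, the perinatal heavy chain, was lower by at least 30666-fold in passage-8 cells. Its binding to other heavy chain messages was not tested. Against CD45-positive cells, passage-8 cells had 4 of 28 higher, Pdlim3, Tnni1, Actn3 and Obsl1, and 3 lower, Myoz1, Tnni2 and Fhod3, which is near the shares of all genes tested (12.6% and 10.9%). Pdlim3, an alpha-actinin-associated LIM protein, was 16.8-fold higher.

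Of 30 cytoplasmic and smooth muscle relatives of the members, 29 were tested against ventricle, and more were higher than lower in each cell group. In passage-8 cells 15 were higher and 6 lower, while CD45-negative cells had 16 and 4 and CD45-positive cells 13 and 8. Of all genes tested, 20.3%, 20.3% and 18.3% were higher and 18.9%, 19.2% and 19.8% lower in the same order. The count of lower genes in passage-8 cells was near that share. Myh10, a non-muscle myosin heavy chain, was 9.13-fold higher in passage-8 cells. In CD45-negative cells Myh9, another non-muscle heavy chain, was 9.44-fold higher, the non-muscle tropomyosin Tpm4 9.38-fold, Pdlim7 8.20-fold and Actn1, a non-muscle alpha-actinin, 7.81-fold. Myh14, Myh11, Fhl1 and Tmod2 were lower than in ventricle in each cell group.

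The promoters of the members were searched for letters of known muscle motifs, in windows from 250 bases before to 50 after each RefSeq gene start in GRCm38.p6. Windows were found for 29 of the 35 members, and not for Tcap, Myom2, Xirp1, Nexn, Cryab and Myot. The CArG box, the motif bound by serum response factor, was searched on both strands and was held by 8 of 29 members (27.6%), against 1.81% of 27025 genes. These members were Acta1, Actc1, Fhl2, Ldb3, Myl3, Myl7, Myom1 and Nebl. They included genes above background in all cell groups and genes above background in none. The MEF2 site, bound by the myocyte enhancer factors, was in 10.3% of members and 2.16% of genes, CATTCC, a motif of TEAD factors, in 48.3% and 16.6%, and TATAAA in 17.2% and 15.7%. A TATAAA can lie inside a MEF2 site, and such overlaps were not removed. A match describes letters in a window and does not show that a factor was bound. The 250 bases before the start of Actc1 and Acta1 are printed because the genes carry a nearly identical motif and differed in detection in the cells. Actc1 is at chr2:114052876-114053125 and Acta1 at chr8:123894776-123895025, both on the minus strand, with the CArG box in capitals.
Actc1 promoter: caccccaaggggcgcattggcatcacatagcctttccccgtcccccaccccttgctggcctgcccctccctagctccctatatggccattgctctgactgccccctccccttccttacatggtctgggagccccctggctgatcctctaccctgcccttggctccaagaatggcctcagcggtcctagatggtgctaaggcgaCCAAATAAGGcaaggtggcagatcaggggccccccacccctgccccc
Acta1 promoter: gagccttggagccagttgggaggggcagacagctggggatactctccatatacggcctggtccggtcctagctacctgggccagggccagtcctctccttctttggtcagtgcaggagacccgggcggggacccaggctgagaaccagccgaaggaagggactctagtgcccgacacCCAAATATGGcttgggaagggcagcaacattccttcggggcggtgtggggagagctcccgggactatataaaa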

How the data were processed

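RNA of 8 samples in 4 groups of 2 (200 ng each) was labelled with Cy3 and hybridised to 1-colour Agilent arrays. Per the submitters' processing notes, the intensity of the spots was read with Agilent Feature Extraction 10.7. The deposited scanner files hold background-corrected processed intensity and detection calls per spot. The authors' deposited value table is on a log2 scale, whose tool no source used here gives. It served as an alternative. Probe coordinates are those of the file headers' build, mm9.

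From the processed intensity, log2 was taken and the 75th percentile of each array subtracted. Control and outlier spots were left out, spots of a probe averaged, and 1 probe kept per gene, the brightest by its mean of the 8 arrays, with symbols updated through RefSeq accessions (46 of the 54 member probes matched). limma 3.58.1 in R 4.3.3 fitted all 8 arrays with 1 mean per group over all genes. Testing required that both arrays of 1 or more of the groups compared were well above background. Passing required a Benjamini-Hochberg adjusted p below 0.05 together with an absolute log2 difference of 1 or more. The code was tested on simulated data. The members, marker lists and tests were chosen with earlier results of these data known. All 35 members could be named, from each other list up to 4 passing genes per direction with the largest difference and the genes behind counts of 5 or fewer, and Ptprc as the check of the sort gate. Alternatives were quantile or median scaling, normexp background with offset 50, the authors' table, filters, probe rules, thresholds, array weights, a trend with robust variance, a replicate block, and leaving out each array. Sequences of promoters are from RefSeq. The number of arrays limits the precision.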

Additional observations from a re-analysis of the deposited data

How the results depend on the processing

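Counts of members passing are given as higher or lower in the group named first. Of 3630 single-member differences recomputed under an alternative, 3410 gave the same call, 74 were called only under the alternative, 142 only in the reported setting, and 4 turned direction: Tpm1 with its probes averaged (-1.40 in passage-8, -2.21 in CD45-negative and -3.0 in CD45-positive cells against ventricle) and Myom2 in passage-8 against CD45-negative cells with normexp (-0.12). For CD45-negative against CD45-positive cells, 1 was lower with quantile scaling, median scaling, the 4 arrays alone or trend with robust variance, 2 with the authors' table, and 1 was higher with median scaling or an adjusted p of 0.01. For passage-8 against CD45-positive cells, 2 were lower with normexp or trend, 3 with array weights or the 4 arrays alone, and 0 with all 4 arrays above background or an adjusted p of 0.01, which left 4 higher. For passage-8 against CD45-negative cells, 6 were higher with quantile scaling, 5 with every probe, no minimum fold or trend, 1 with array weights and 0 with an adjusted p of 0.01 or the 4 arrays alone, and 2 were lower with normexp or trend. Against ventricle, requiring all 4 arrays above background left 17 lower in passage-8, 11 in CD45-negative and 16 in CD45-positive cells, since fewer genes were tested. Averaging probes left 1 higher in each, and an adjusted p of 0.01 or the 4 arrays alone left 1 higher in CD45-positive cells. The cause was not tested for the other changes. Median scaling moved every difference from ventricle by 0.19, 0.14 and 0.28 log2 units in passage-8, CD45-negative and CD45-positive cells, and CD45-negative against CD45-positive cells by -0.14.

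With single arrays left out, 29 to 31 were lower and 2 to 3 higher in passage-8 cells against ventricle, 29 to 31 and 2 in CD45-negative cells, and 29 to 32 and 1 to 2 in CD45-positive cells. Against CD45-positive cells, 3 to 12 were higher and 0 to 2 lower in passage-8 cells, and 1 to 5 higher and 0 to 2 lower in CD45-negative cells. In passage-8 against CD45-negative cells, 0 to 6 were higher and 0 to 3 lower. Members detected on the 1 array left in the group ran from 21 to 25 in passage-8, 17 to 18 in CD45-negative and 19 to 20 in CD45-positive cells, and stayed at 35 in ventricle. This rule is looser than detection on both arrays, so these ranges do not measure the stability of the counts reported above. The replicate numbers were not taken as pairs. Deviations of same-numbered arrays correlated between -0.196 (CD45-negative with CD45-positive) and 0.193 (CD45-positive with ventricle) over 18088 genes. With the replicate number as a block, the counts lower and higher were 31 and 2, 31 and 2, and 32 and 2 in passage-8, CD45-negative and CD45-positive cells against ventricle, then 0 and 3 for CD45-negative, 1 and 10 for passage-8 against CD45-positive cells, and 0 and 3 for passage-8 against CD45-negative cells. With 2 arrays a group, weak signals near background limit what can be told of the dim members.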

Other observations

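Genes of the atrium other than the 2 light chains also differed between the ventricle arrays. Sln, which encodes the atrial calcium pump regulator sarcolipin, was not above background on the first ventricle array, at -5.12, and was at 6.94 on the second. Nppa, atrial natriuretic peptide, was at 5.95 and 8.78, Dkk3 at -1.24 and 4.07, and Mybphl, a myosin-binding protein of the atrium, at -4.45 and 2.15. The summed signal of the 9 atrial genes listed was 9.36 to 9.47 in passage-8 cells, 26.6 to 37.2 in CD45-negative cells, 6.56 to 6.82 in CD45-positive cells and 66.1 to 835 in ventricle, in units of each array's 75th percentile. Dkk3 was the brightest of them in each cell group, with mean levels of 2.20, 4.61 and 2.22. Nr2f2 came next in passage-8 and CD45-negative cells, at 1.84 and 2.19. Myl7 and Kcnj3 were above background on no cell array. The cell sums therefore do not stand for the list as a whole. The summed signal of 6 ventricular genes was at most 0.595, 0.381 and 0.302 in those cell groups and 1755 to 1876 in ventricle.

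On the CD45-negative arrays, Corin, the protease that activates natriuretic peptides, was not above background on the first array, at -6.86, and was at -2.63 on the second, which also carried the signals of Actc1 and Tmod1 and the higher macrophage sum. These values were chosen after they were seen, and their source was not tested.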
